A study of Homo sapiens with 4 samples.

Results

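The tubulins and the cytoplasmic actins are the classic clients of the chaperonin TRiC, the double-ring chaperone that folds them before they can polymerise. TXNDC9, also named phosducin-like protein 3, is a cofactor that binds this chaperonin. The question here is how the messenger RNAs of these clients differed between wild-type cells and cells in which TXNDC9 had been knocked out. Described are 10 genes chosen by symbol, out of 57979 genes with values: the alpha-tubulins TUBA1A, TUBA1B and TUBA1C, the beta-tubulins TUBB, TUBB2A, TUBB4B and TUBB6, the gamma-tubulin TUBG1, and the actins ACTB and ACTG1. Every symbol occurred once, and 10 of 10 genes passed the filter on low values.

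Polyadenylated RNA was sequenced in 4 libraries of cells labelled HepG2, a human liver cancer cell line, grown in DMEM with serum. The 2 WT libraries came from wild-type cells and the 2 TXNDC9-KO libraries from cells in which CRISPR-Cas9 had been directed at TXNDC9 with guides in the lentiCRISPRv2 vector. For a western blot of this line the study describes sorting of infected cells, with vector alone as the control. For the sequenced cells, neither the labels nor the methods say whether the knockout was 1 clone or a sorted pool, which guide it carried, whether the WT cells carried the vector, or whether the libraries of a condition came from separate cultures. The p-values therefore measure only the spread between these libraries, which may be technical.

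The cells did not show the markers of the line they are labelled as. Of 17 hepatocyte and HepG2 markers, 15 stayed under 1 FPKM in all 4 libraries (FPKM, fragments scaled to transcript length and to the size of the library). The highest of these 15 was AFP, the fetal plasma protein of the liver, at 0.449 FPKM, while APOA1 and FOXA2 were listed at 0 in each library. The other 2 were the keratins KRT8 and KRT18 of simple epithelia, KRT8 at 4303 and 5444 FPKM in WT and at 1408 and 1418 FPKM in TXNDC9-KO. KRT8 was called lower (log2 difference −1.78, adjusted p = 0.0012 in limma). Summed fibroblast markers lay between 49.7 and 54.3 FPKM in WT and between 34.6 and 38.5 FPKM in TXNDC9-KO, with COL1A2 listed at 0. COL1A1 and COL3A1 made up most of these sums, whereas PDGFRB, a receptor of mesenchymal cells, went the other way, from 1.08 and 0.735 FPKM in WT to 3.004 and 2.62 FPKM in TXNDC9-KO, and was called higher (log2 difference 1.55, adjusted p = 0.0039 in limma). The 5 leukocyte markers stayed under 1 FPKM, as did 4 of 5 endothelial markers. CDH5, the cadherin of endothelial junctions, was 0.751 and 1.07 FPKM in WT and 4.26 and 3.14 FPKM in TXNDC9-KO. It was called higher as well (log2 difference 1.92, adjusted p = 0.0019 in limma). TXNDC9 itself was 35.1 and 37.3 FPKM in WT and 21.9 and 27.6 FPKM in TXNDC9-KO, a log2 difference of −0.55 (standard error 0.14, adjusted p = 0.0145 in limma with Benjamini-Hochberg adjustment), which did not pass 0.01. This value is messenger RNA, while the paper reports a significant reduction of TXNDC9 protein in its western blot of HepG2 knockout cells. The FPKM values of a library summed to 805816 and 971102 in WT but to 535973 and 568279 in TXNDC9-KO. In such bulk RNA, fewer cells of a type and less RNA per cell cannot be told apart.

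Microtubules are polymers of alpha- and beta-tubulin dimers, gamma-tubulin nucleates them at the centrosome, and actin filaments are built from ACTB and ACTG1. Cells adjust tubulin synthesis to the free dimer. When free tubulin is high, the factor TTC5 recognises the first residues of nascent alpha- or beta-tubulin at the ribosome and the tubulin messenger is degraded. Actin genes are instead controlled largely through transcription by SRF, whose coactivators are held back by unpolymerised actin.

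The start of the coding sequence carries both the tubulin signal and the main difference between the actins, and it is printed here to show how alike the members are. Shown are the first 30 coding bases of the canonical GENCODE release 44 transcripts on hg38. In the tubulins the capitals mark the first 4 codons, and in the actins they mark the codons that differ between ACTB and ACTG1.
TUBA1A: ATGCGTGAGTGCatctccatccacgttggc
TUBA1B: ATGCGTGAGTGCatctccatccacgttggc
TUBA1C: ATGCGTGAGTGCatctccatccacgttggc
TUBB: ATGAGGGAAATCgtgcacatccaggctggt
TUBB2A: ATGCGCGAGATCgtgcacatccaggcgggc
TUBB4B: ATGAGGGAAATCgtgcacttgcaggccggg
TUBB6: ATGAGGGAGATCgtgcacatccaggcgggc
TUBG1: ATGCCGAGGGAAatcatcaccctacagttg
ACTB: atgGATGATGATatcgccgcgCTCgtcGTC
ACTG1: atgGAAGAAGAGatcgccgcgCTGgtcATT
Over the whole coding sequence, TUBA1B was 96.8% identical in bases to TUBA1C and 97.2% to TUBA1A. The beta-tubulins were 80.9% (TUBB and TUBB6) to 87.2% (TUBB2A and TUBB4B) identical to each other. ACTB and ACTG1 were 91.2% identical, and the coding sequence of TUBG1 was at most 52.9% identical to that of another member.

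The members also differ in how much of their messenger can be told apart by sequencing. Of the windows of 100 bases along the canonical transcript, 37.2% in TUBA1B, 21.2% in TUBA1A and 12.3% in TUBA1C occurred without mismatch in a transcript of another gene. For TUBB2A the share was 55.6%, nearly all with TUBB2B, which was at most 0.0562 FPKM. The share was 14.98% in TUBG1, 5.42% in TUBB, 3.01% in TUBB4B, 0.175% in ACTB and 0 in TUBB6 and ACTG1. How the reads of shared stretches were divided among genes is not given in the sources used here, and its part in the values was not tested. The 70 annotated pseudogene-like copies of these families held little signal, since 44 were listed at 0 in every library and 0 had a mean above 1 FPKM.

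On hg38 the alpha-tubulin genes lie together on chromosome 12, TUBA1B (ENSG00000123416) from 49127782 to 49131397 and TUBA1A (ENSG00000167552) from 49184686 to 49189080 on the minus strand, and TUBA1C (ENSG00000167553) from 49188736 to 49274600 on the plus strand. TUBB (ENSG00000196230) and TUBB2A (ENSG00000137267) are on chromosome 6, from 30717435 to 30725538 on the plus and from 3153497 to 3157544 on the minus strand. TUBB4B (ENSG00000188229) is on chromosome 9 from 137241287 to 137243707 and TUBB6 (ENSG00000176014) on chromosome 18 from 12307669 to 12344320, both on the plus strand. ACTB (ENSG00000075624) occupies 5526409 to 5563902 of chromosome 7 and ACTG1 (ENSG00000184009) 81509413 to 81523847 of chromosome 17, both on the minus strand, and TUBG1 (ENSG00000131462) lies on chromosome 17 from 42609641 to 42615238 on the plus strand. The canonical transcripts of the alpha- and beta-tubulins have 4 exons, those of the actins 6 and that of TUBG1 11. Each of the 10 genes overlaps at least 1 annotated gene on the other strand, TUBA1A and TUBA1C each other, and whether the reads were assigned by strand is not given in the sources used here.

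The differences were tested across all 13246 genes with a mean above 1 FPKM, on log2(FPKM + 0.1) with limma, and calling a gene required both a 2-fold difference and a Benjamini-Hochberg adjusted p below 0.01. This scale understates the change of low genes. TUBB4B and ACTB fell in the knockout, TUBB4B to 32.2% and ACTB to 40.7% of the WT mean, and no other member was called. The 2 members called lower of 10 compare with 15.3% of all tested genes called lower, and the 0 members called higher with 14.2% called higher, together 29.5% called either way. A single member, TUBA1B, had a positive log2 difference, while 9 had negative ones. For these 9, both TXNDC9-KO values lay below both WT values, which was so for 45.9% of all tested genes, while the reverse, seen in TUBA1B, was so for 40.1%. The median log2 difference was −0.65 over the members and −0.09 over all tested genes. It was −0.19 against −0.05 after a correction for transcript length and GC content, and 0.03 against 0.59 after rescaling of each library to a common sum (TPM), both described further on.

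**Figure D1:**
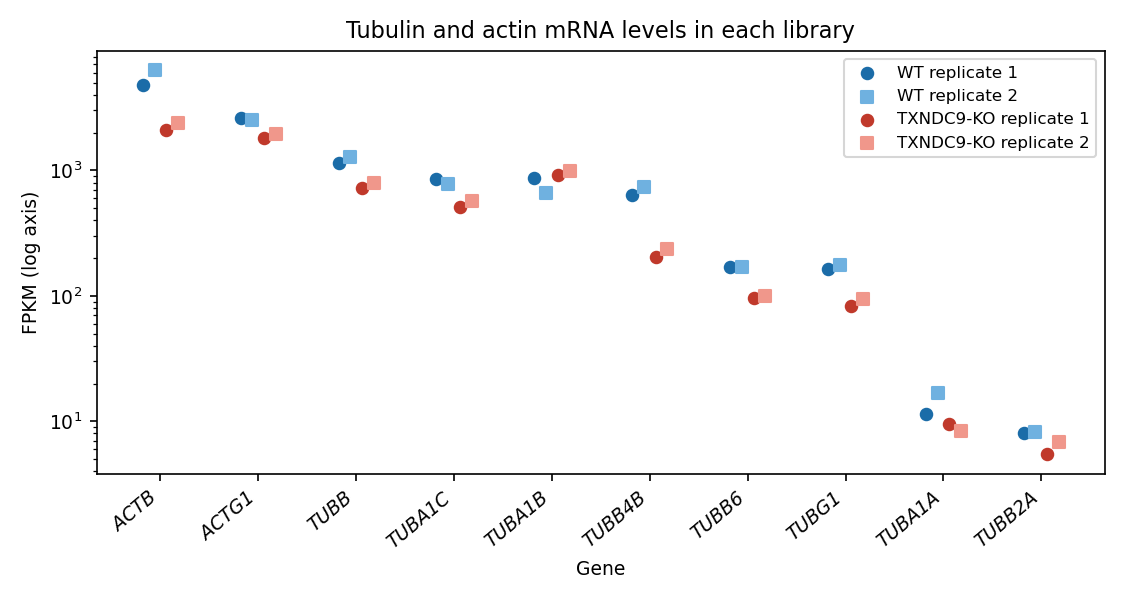
FPKM of the 10 genes in each library on a log axis, ordered by the WT mean, with circles for replicate 1 and squares for replicate 2. Both TXNDC9-KO values (red) lie below both WT values (blue) for 9 genes on the deposited FPKM scale and above them for TUBA1B, which has values of 656 to 982 FPKM.

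Among the actins, ACTB was 4747 and 6310 FPKM in WT and 2106 and 2398 FPKM in TXNDC9-KO. The groups did not overlap, and the log2 difference was −1.28 (standard error 0.25, adjusted p = 0.0056 in limma with Benjamini-Hochberg adjustment). ACTB, the main actin of non-muscle cells, was the highest member in both groups. ACTG1, the second cytoplasmic actin, was 2627 and 2497 FPKM in WT and 1799 and 1947 FPKM in TXNDC9-KO. These groups did not overlap either, but the log2 difference of −0.45 (standard error 0.19) did not pass the test (adjusted p = 0.078 in limma). Without WT replicate 2, the higher of the WT values of ACTB, its adjusted p in limma was 0.011 with a log2 difference of −1.08, and ACTB was no longer called. Without TXNDC9-KO replicate 1 or 2, the log2 difference was −1.19 (adjusted p = 0.276) or −1.38 (adjusted p = 0.217), and ACTB was not called either.

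Among the beta-tubulins, TUBB4B, an isotype also found in cilia, was 637 and 731 FPKM in WT and 205 and 236 FPKM in TXNDC9-KO. The values stood far apart, with a log2 difference of −1.63 (standard error 0.15, adjusted p = 0.000627 in limma). Of all tested genes, 4.67% had a lower log2 difference. Without TXNDC9-KO replicate 1 or 2 no gene of the whole table was called, and the log2 difference of TUBB4B was −1.53 (adjusted p = 0.0281 in limma) or −1.74 (adjusted p = 0.0241). At an unadjusted p under 0.05 there were then 7129 or 7307 genes. TUBB, the most abundant beta-tubulin in these libraries, was 1155 and 1273 FPKM in WT and 722 and 799 FPKM in TXNDC9-KO, a log2 difference of −0.68 (standard error 0.16, adjusted p = 0.0127 in limma), and was not called. TUBB6 was 169 and 171 FPKM in WT and 96.8 and 100.1 FPKM in TXNDC9-KO. Its log2 difference of −0.79 (standard error 0.11) passed the adjusted p (0.00155 in limma) but not the fold change. TUBB2A stood low, at 7.998 and 8.25 FPKM in WT and 5.45 and 6.79 FPKM in TXNDC9-KO, and was not called (adjusted p = 0.0444 in limma).

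The alpha-tubulins did not move alike. TUBA1C was 853 and 778 FPKM in WT and 512 and 575 FPKM in TXNDC9-KO, a log2 difference of −0.59 (standard error 0.15, adjusted p = 0.0167 in limma). TUBA1B, its near-identical neighbour, was 877 and 656 FPKM in WT and 921 and 982 FPKM in TXNDC9-KO. The groups did not overlap, yet the WT libraries differed from each other more than WT replicate 1 did from either knockout library. The log2 difference of 0.33 (standard error 0.19) did not pass the test (adjusted p = 0.183 in limma). It was 0.53 without WT replicate 1 and 0.12 without WT replicate 2, and 0.83 after the length and GC correction (adjusted p = 0.0174 in limma). TUBA1A, the main alpha-tubulin of neurons, was 11.5 and 16.8 FPKM in WT and 9.55 and 8.36 FPKM in TXNDC9-KO and was not called (adjusted p = 0.032 in limma). TUBG1, needed to nucleate microtubules, was 163 and 175 FPKM in WT and 83.6 and 94.8 FPKM in TXNDC9-KO. Like TUBB6 it passed the adjusted p (0.00145 in limma) but not the fold change, with a log2 difference of −0.92 (standard error 0.12). After the length and GC correction the log2 differences of TUBG1 and TUBB6 were −0.18 (adjusted p = 0.11 in limma) and −0.16 (0.133), and on the TPM scale −0.24 and −0.11.

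In WT the order of the means was ACTB, ACTG1, TUBB, TUBA1C, TUBA1B, TUBB4B, TUBB6, TUBG1, TUBA1A and TUBB2A. The library values overlapped between TUBA1C and TUBA1B, between TUBA1B and TUBB4B and between TUBB6 and TUBG1, so these neighbours did not differ beyond their spread. In TXNDC9-KO, TUBA1B moved to the third place, ahead of TUBB and TUBA1C, and no neighbours overlapped. The most abundant messenger, ACTB, ranked 7 among all tested genes by mean FPKM in WT and 9 in TXNDC9-KO. ACTG1 ranked 43 and 16.

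These differences depend on how the libraries are scaled and on transcript length and GC content. Rescaling to TPM took the median log2 difference of all tested genes from −0.09 to 0.59. On that scale the log2 differences of TUBA1A, TUBA1C, TUBB, TUBB2A and ACTG1 turned positive (0.05, 0.09, 0.01, 0.26 and 0.23), and those of TUBB4B (−0.95) and ACTB (−0.60) no longer reached a fold change of 2. TUBA1B, at 1.01 (adjusted p = 0.00356 in limma), was then called higher. Across 13112 genes with a canonical transcript, which are not independent replicates, longer transcripts had higher log2 differences (Spearman rho 0.495) and GC-rich ones lower (Spearman rho −0.462). Libraries of the same group differed along length as well. For WT replicate 2 minus 1 the Spearman rho was −0.325 with length and 0.119 with GC content. For TXNDC9-KO replicate 2 minus 1 it was −0.0625 and 0.00145. The members' transcripts were 1563 (TUBB4B) to 2823 (TUBA1C) nt long, against a median of 2866.5 nt, and had 50.2% (TUBA1C) to 59.3% (TUBB4B) GC, against 48.5%. After correction of each library for both, the log2 difference was −0.80 for TUBB4B (adjusted p = 0.00179 in limma) and −0.72 for ACTB (0.00642), so that both kept an adjusted p under 0.01 and neither reached a fold change of 2. TUBA1C (−0.54) and TUBB (−0.51) had adjusted p-values of 0.00706 and 0.00483 after it, and those of the other 6 members were above 0.01. The corrected log2 difference turned positive for TUBB2A (0.40) and ACTG1 (0.05). The part of length, GC content and scaling in the deposited values was not tested further.

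**Figure D2:**
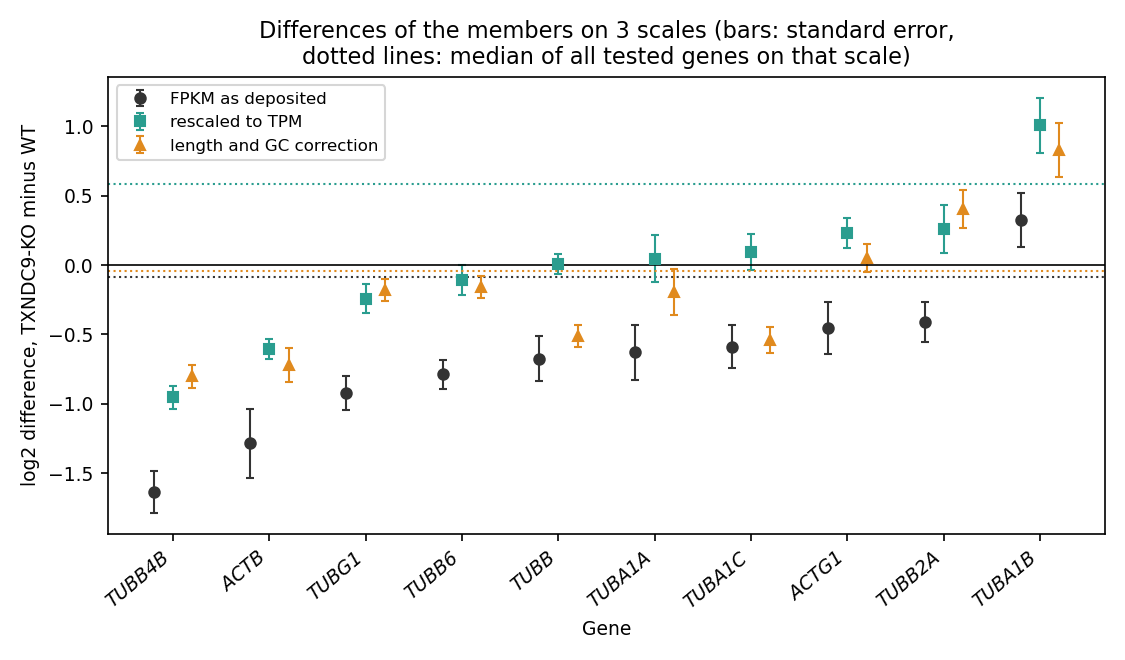
Log2 difference between TXNDC9-KO and WT for each gene with its standard error, from FPKM as deposited, after rescaling to TPM and after correction for length and GC content, with dotted lines at the median of all tested genes on each scale. TUBB4B and ACTB are lowest on the deposited scale and negative on each scale, TUBA1B is positive on each, and TUBA1A, TUBA1C, TUBB, TUBB2A and ACTG1 change sign after rescaling to TPM, TUBB2A and ACTG1 also after the correction.

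Ratios within a library do not depend on its scaling, so the composition of each family was compared as shares of its summed FPKM, over all listed alpha- or beta-tubulin genes or the 2 cytoplasmic actins. In an exact two-sided permutation test, 2 libraries against 2 cannot give a p below 0.33, and each share and ratio given here had this smallest p. TUBB4B held 32.1% and 33.1% of the summed beta-tubulin in WT and 19.8% and 20.55% in TXNDC9-KO. TUBB held 58.1% and 57.7% against 69.8% and 69.6%. The replicates lay within about 1 percentage point of each other, and the groups 11.8 points apart for TUBB. After the length and GC correction the log2 differences of TUBB4B and TUBB were −0.80 and −0.51. These lay closer together than the deposited −1.63 and −0.68. The shares themselves were not computed after that correction.

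Within the alpha-tubulins, TUBA1B held 45.4% and 39.0% of the sum in WT and 60.75% and 59.7% in TXNDC9-KO, while TUBA1C held 44.2% and 46.2% against 33.8% and 34.9%. The ratio of TUBA1B to TUBA1C was thus 1.03 and 0.843 in WT and 1.80 and 1.71 in TXNDC9-KO. The ratio of ACTB to ACTG1 was 1.81 and 2.53 in WT and 1.17 and 1.23 in TXNDC9-KO. The 2 WT libraries differed more in this ratio than the knockout libraries, but neither came down to the knockout values. Summed alpha-tubulin stood at 0.971 and 0.764 of summed beta-tubulin in WT and at 1.465 and 1.43 of it in TXNDC9-KO. Summed tubulin to summed actin was 0.531 and 0.442 in WT and 0.653 and 0.643 in TXNDC9-KO. A common rescaling leaves these ratios as they are, but a length or GC effect that differs between genes does not. After the length and GC correction, the log2 differences of TUBA1B (0.83) and TUBA1C (−0.54) lay further apart than the deposited 0.33 and −0.59. Those of ACTB and ACTG1 were −0.72 and 0.05, against −1.28 and −0.45.

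**Figure D3:**
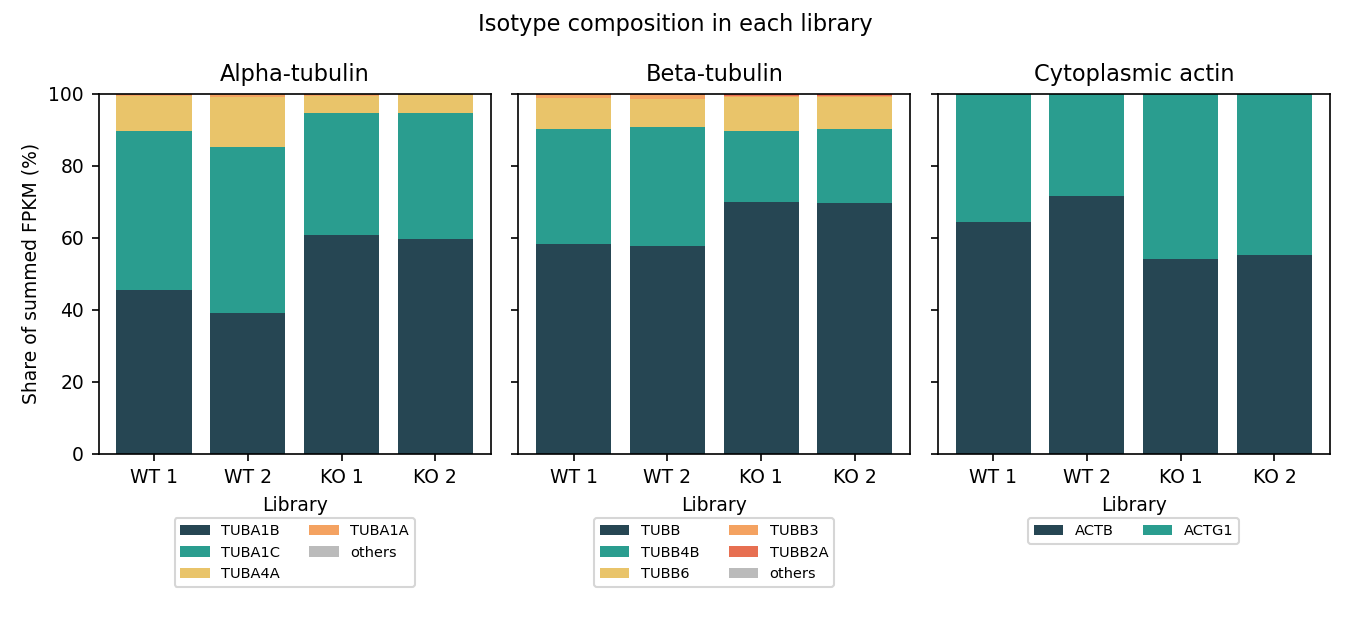
Share of the summed FPKM of alpha-tubulin, beta-tubulin and the 2 cytoplasmic actins held by each gene (percent, stacked bars, 1 bar per library). The share of TUBA1B is near 60% in both knockout libraries and under 46% in both WT libraries, and the shares of TUBB4B and ACTB are lower in both knockout libraries.

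Of the 23 tubulin genes and 6 actin genes listed, 8 that are no members also passed the filter. TUBA4A, at 189 and 233 FPKM in WT, fell to 72.9 and 79.7 FPKM in TXNDC9-KO (log2 difference −1.46, adjusted p = 0.0007 in limma). TUBB3, the neuronal beta-tubulin, was 17.5 and 22.8 FPKM in WT and 4.99 and 5.26 FPKM in TXNDC9-KO and was called lower, but its locus overlaps a second annotated gene on the same strand. ACTC1, the cardiac actin, was 10.6 and 11.5 FPKM in WT and fell to 3.21 and 1.90 FPKM in TXNDC9-KO. The others were not called. On this deposited scale 15.3% of all tested genes were called lower and 14.2% higher. ACTG2 of smooth muscle had a log2 difference of −1.23 (adjusted p = 0.0123 in limma) and ACTA2 one of −0.29. TUBG2, TUBD1 and TUBE1, the second gamma-tubulin and the delta- and epsilon-tubulins of centrioles, had −0.41, −0.28 and −0.02.

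Some genes of the folding machinery that serves these clients were called lower, as were 15.3% of all tested genes. Of 8 tested chaperonin subunits, 1 was called lower, CCT7, with 509 and 624 FPKM in WT and 256 and 272 FPKM in TXNDC9-KO, and 8 had negative log2 differences with a median of −0.44. CCT8 had −0.75 and was not called. Of 6 prefoldin subunits, which hand nascent actin and tubulin to the chaperonin, 3 were called lower, PFDN4 (−1.72), PFDN2 (−1.61) and PFDN5 (−1.34). Tubulin folding cofactors assemble the dimer after the chaperonin. Of 7 genes listed with them, among them the related TBCEL, 3 were called lower, the GTPase ARL2 (−1.48), TBCB (−1.34) and TBCA (−1.22). TBCEL (1.04) was called higher, and that role is not ascribed to it here. Among 3 tested phosducin-like proteins none was called, with PDCL3 at −0.91 and PDCL at 0.56. The 3 autoregulation genes TTC5 (0.43), SCAPER (0.49) and CNOT11 (0.21) were not called. PFDN5, TBCA, TBCEL and CNOT11 were named after their values were seen. On the same log2 scale 15.3% of all tested genes were called lower and 14.2% higher. On that scale the log2 difference also rose with transcript length (Spearman rho 0.495) and fell with GC content (−0.462). The length and GC correction left 969 genes called lower and 841 higher, against 2021 and 1885 on the deposited scale. Neither these list counts nor those of the lists below were repeated after it, and the part of length and GC content in them was not tested.

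Partners of the polymers went both ways, and their counts stand beside 15.3% of all tested genes called lower and 14.2% called higher. On the deposited scale, the gamma-tubulin ring complex list had 2 called lower, MZT2A (−1.67) and MZT2B (−1.51), and 2 called higher, NEDD1 (1.14) and TUBGCP4 (1.04), of 9 tested, the latter pair named after their values were seen. Of 18 microtubule-binding proteins 7 were called higher, led by the minus-end binder CAMSAP2 (1.76), and 1 lower, MAP1S (−1.95). Of 16 tubulin modifying enzymes 1 was called lower, the glutamylase TTLL4 (−1.41), and 2 higher, among them VASH2 (1.24), a tubulin carboxypeptidase. The actin monomer and filament regulators had 6 called lower and 3 higher of 25 tested. TMSB10, a thymosin that sequesters monomeric actin, was 811.5 FPKM in the mean of TXNDC9-KO against 4344 FPKM in WT, a log2 difference of −2.38, and the capping protein CAPZA2 had 1.49.

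Of 11 actin-related proteins 2 were called higher, ACTR3 (1.36) and ACTR2 (1.25), which belong to the Arp2/3 complex that branches actin filaments. Other subunits of that complex, listed with the actin regulators, were called lower, ARPC5L (−1.21), ARPC3 (−1.10) and ARPC1B (−1.03). ARPC1A (−0.78), ARPC2 (−0.76), ARPC4 (−0.58) and ARPC5 (0.53) were not called, and these 7 were named after their values were seen. SRF, its coactivators and target genes had 5 called lower and 2 higher of 19 tested, among the former TAGLN (−2.25) and FLNA (−1.94). The 2 called higher, named after their values were seen, were the SRF coactivator MKL2 (1.78) and CTGF (1.46). Other chaperonin clients, proteins with WD repeats and VHL, had 2 called lower and 3 higher of 12 tested, among the latter STRN (1.53) and STRN3 (1.499). The share over all tested genes was again 15.3% lower and 14.2% higher. None of these lists was tested as a set or counted after the length and GC correction.

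**Figure D4:**
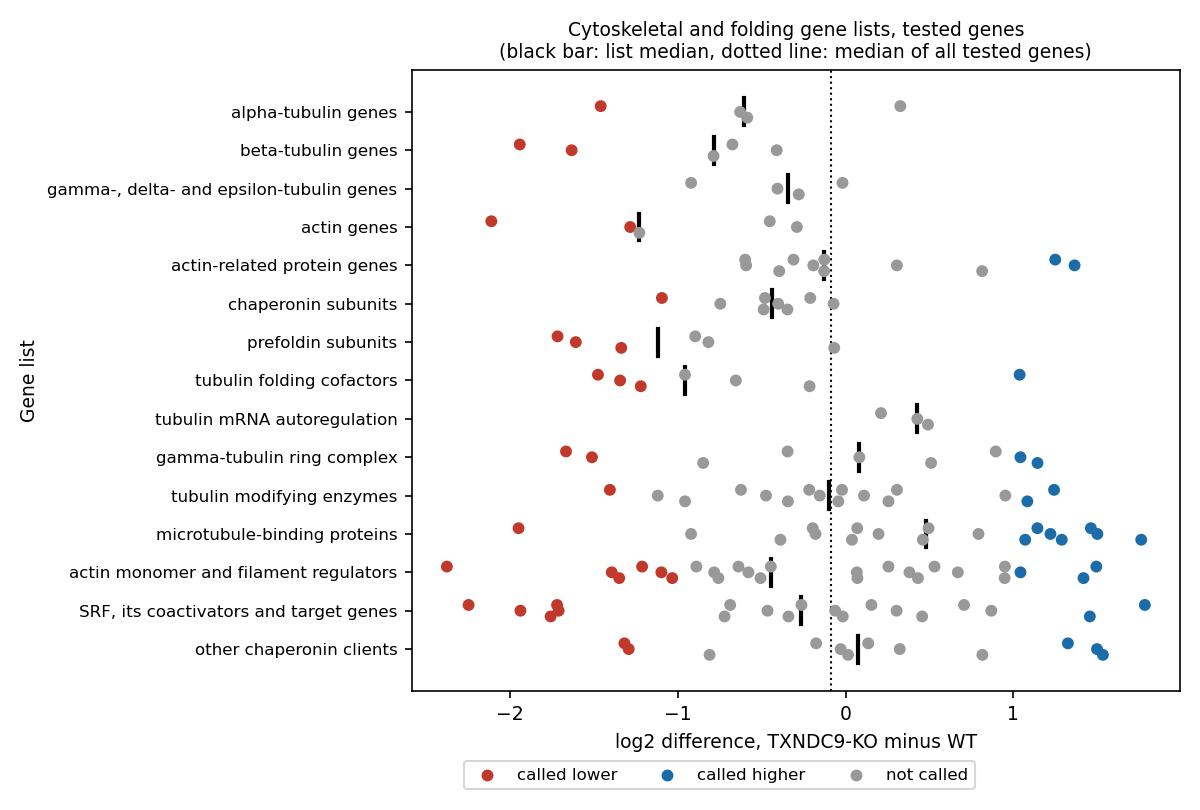
Log2 difference between TXNDC9-KO and WT on the deposited FPKM scale for each tested gene of 15 lists, coloured by the call, with the list median as a black bar and the median of all tested genes, −0.09, as a dotted line. The medians of the actin (−1.23), prefoldin (−1.12) and tubulin folding cofactor (−0.96) lists lie furthest to the left, and TUBA1B is the point on the right in the alpha-tubulin row. Rescaling to TPM moves the median of all tested genes to 0.59. The lists are not shown after the length and GC correction.

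The promoters of the members were searched for 3 motifs on both strands, the CArG box bound by SRF, the MYC-type E-box CACGTG and the CCAAT box. RefSeq start sites gave 13 windows for 9 members, all but ACTB, whose promoter was not searched, from 250 bases before to 50 after the start (GRCh38.p14). A CArG box was in 1 of the 13 windows, that of ACTG1, and in 1.29% of all 35116 promoter windows. CACGTG was in 3 of 13 and in 7.26% of all, and CCAAT in 9 of 13 and 34.6% of all. Windows of 1 gene can overlap and share a match. Shown are the stretches around the CArG box and the CACGTG matches, with the motif in capitals, in the direction of transcription.
ACTG1, CArG box, chr17:81512874-81512903, minus strand: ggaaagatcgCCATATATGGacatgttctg
ACTG1, CACGTG, chr17:81512927-81512956, minus strand: gggccggggcccCACGTGtccctgcccggc
TUBB, CACGTG, chr6:30721577-30721606, plus strand: gtgcgccgcagtCACGTGgagggcgggggg
TUBA1C, CACGTG, chr12:49265018-49265047, plus strand: ccgccctcccgaCACGTGgccggggaccgg
A match is a description of the sequence, and none of these 3 genes was called.

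ACTB was also the gene to which the study's RT-qPCR values were scaled, so the RNA-seq values of the genes measured by RT-qPCR were expressed per ACTB within each library. Of these genes, the paper names only MYC as measured by RT-qPCR in knockout and wild-type HepG2 cells, and reports it as modestly lower. TXNDC9 was measured so in liver tissues, and for SRM, DUSP2, WDR74 and PES1 its text lists primers without naming the samples. The paper also reports relative TXNDC9 expression in HepG2 cells given siRNAs against FOXA1, JUND or FOSL2, without naming the method there. It further reports that MG132 restored the expression of genes lower in the knockout, which its text does not name. The ratios here come from RNA-seq, and their size was not compared with RT-qPCR values. TXNDC9 was 0.00739 and 0.00591 of ACTB in WT and 0.0104 and 0.0115 in TXNDC9-KO. Its ratio to ACTB was therefore higher in the knockout by 0.73 on the log2 scale, while its FPKM had a log2 difference of −0.55. MYC, the transcription factor, likewise had −0.41 in FPKM and 0.88 per ACTB. This ratio of MYC went the other way from the paper's RT-qPCR, and the reason was not tested. For WDR74, a ribosome assembly factor that fell by 1.32 in FPKM on the log2 scale, the difference per ACTB was −0.04 and the groups overlapped. SRM (spermidine synthase), DUSP2 and PES1, which fell in FPKM by 2.19, 1.74 and 1.65 on the log2 scale, had −0.91, −0.47 and −0.37 per ACTB. For these 3, both knockout ratios stayed below both WT ratios. A length or GC effect that differs between genes does not cancel in a ratio to ACTB. The log2 difference of ACTB was −1.28 as deposited and −0.72 after the length and GC correction. The ratios to ACTB were not computed after that correction.

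Among 14 common reference genes ACTB had the lowest log2 difference on the deposited scale. GAPDH, a glycolytic enzyme, was close to it with −1.20 and was also called lower, and TFRC, the transferrin receptor, was called higher with 2.21. The median over the 14 was −0.59, and 12 of them had negative log2 differences. HPRT1 and TBP were nearest to 0, with −0.22 and −0.21. The ratio of GAPDH to ACTB was 1.70 and 1.43 in WT and 1.67 and 1.63 in TXNDC9-KO, with overlapping groups.

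**Figure D5:**
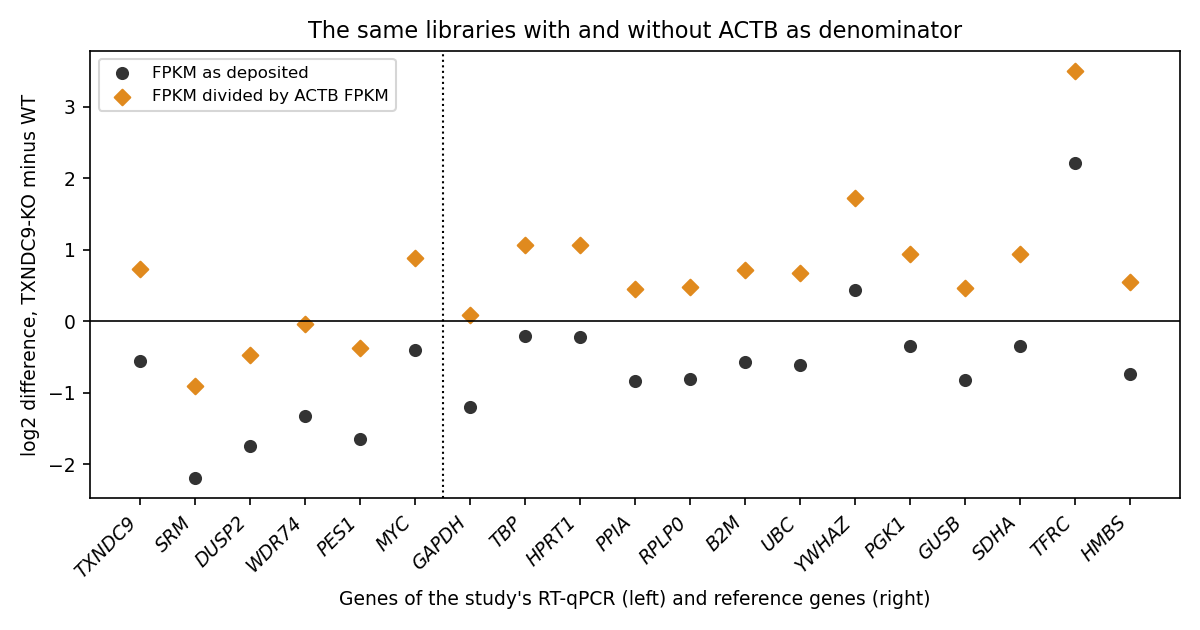
Log2 difference between TXNDC9-KO and WT for the genes of the study's RT-qPCR and for 13 reference genes, from FPKM as deposited (circles) and from FPKM divided by the ACTB value of the same library (diamonds). The division moves each gene up by 1.28 or about that, so that TXNDC9 and MYC change sign and WDR74 and GAPDH come to lie near 0. The ratios are not shown after the length and GC correction.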

How the data were processed

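The deposited table holds FPKM per gene in the 4 libraries, made by the authors with TopHat2 alignment to hg38, Ensembl annotation and Cuffdiff. Versions, normalization and strand setting are not given in the sources used here, and no counts were used, so that depth is unknown. Deposited p-values, q-values, fold changes and means of the authors' own comparison were not used.

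Gene identifiers were put back in register, since each was repeated 4 times while 57979 lines held values. Genes with a mean above 1 FPKM (13246) were tested with limma 3.58.1 (R 4.3.3) on log2(FPKM + 0.1), with trend and Benjamini-Hochberg adjustment. Calls needed an adjusted p under 0.01 and at least a 2-fold change. The script was tested on simulated data, where the uncorrected fit, the form used for the main calls, made 0 false calls without a trend. A length trend put into the TXNDC9-KO libraries only gave 5156 false calls in that fit and 0 after the length and GC correction. The correction models the very trend put in, whose size was not matched to the data, and no GC effect was simulated. These counts therefore give no error rate for the deposited values. Named were the members, the other tested tubulins and actins, reference and RT-qPCR genes, the 3 genes nearest in profile to ACTB and to TUBA1B, and in each list the 2 other genes with the largest absolute log2 difference. The main fit had no replicate block, since nothing says that libraries with equal replicate numbers share a culture. The correlation of deviations of same-numbered libraries was −0.0904, which cannot settle pairing with 2 libraries a group. Alternatives were other pseudocounts and filters, TPM, median centring, a loess correction for length and GC content (span 0.3), the replicate block and leaving out each library. Sequences came from GENCODE release 44 and RefSeq. Protein sequences were not used here, and identity was computed on coding sequences with Biopython 1.88.

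The members and lists were chosen with earlier results of these data known, and the coding identity, shared windows and promoter motifs were added after the files had been examined. The level of 1 marker in the cell type lists is not reported here.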

Additional observations from a re-analysis of the deposited data

How the results depend on the processing

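Rescaling to TPM gave 447 genes lower and 4380 higher (90.7% higher, against 48.3%), with 0 members lower and 1 higher, and turned the log2 differences of TUBA1A (0.046), TUBA1C (0.094), TUBB (0.0055), TUBB2A (0.26) and ACTG1 (0.23) positive. Centring on the median gave 2601 lower and 1452 higher (35.8% higher), with 3 members lower. TUBG1 was then called as well (−1.065, adjusted p = 0.000537 in limma). The length and GC correction gave 969 lower and 841 higher with 0 members, and 975 and 841 with 0 members with the replicate block. TUBB2A (0.40) and ACTG1 (0.049) were positive in both. The replicate block alone gave 2146 lower and 1960 higher, with 2 members lower, and changed no member's call. A mean above 5 FPKM left 1220 genes higher.

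Leaving out 1 library gave 0 to 2633 genes lower, 0 to 2136 higher and 0 to 2 members lower. The lone library was then assumed to vary like the other group.

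With FPKM multiplied by transcript length, the knockout minus WT difference in beta-tubulin share was 9.69 points for TUBB, 0.108 for TUBB2A, −9.81 for TUBB4B and 0.398 for TUBB6. That of the ratios was 0.471 for TUBA1B to TUBA1C, 2.70 for TUBB to TUBB4B and 0.425 for alpha- to beta-tubulin. Over all alternatives TUBB4B stayed between −1.78 and −0.80 and ACTB between −1.49 and −0.60. Without a filter, limma warned that most variances were 0. Depth is unknown, and 2 libraries a group limit the precision.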

Other observations

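The genes whose 4 library values, centred on the log2 scale, lay nearest to those of ACTB among 13229 genes were CAMTA1, a transcription activator (distance 0.0211), MRPS15, a protein of the mitochondrial ribosome (0.0262), and NOSIP (0.0357). All 3 were called lower on the deposited scale. Nearest to TUBA1B were GTSE1, a microtubule-associated protein of dividing cells (0.042), NRBP2 (0.0431) and C1orf109 (0.0476). With 4 libraries such nearness is a description of these values.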
